A study of Mus musculus with 12 samples.

Results

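Genes that make, break down or sense prostaglandins were followed after myocardial infarction (MI) or sham surgery in the hearts of C57Bl/6 mice, a common inbred strain. They were chosen by symbol: Pla2g4a, Ptgs1, Ptgs2, Ptges, Ptgis, Ptgds, Hpgd, Ptger4, Ptgfr and, as a kinase of a related lipid mediator, Sphk1. Of these 10 genes, 9 had at least 1 probe set with that single symbol, 17 probe sets among 20380 with a single symbol, which stood for 12393 genes. No probe set carried the single symbol Ptgs1, so that gene was not analysed here. For MI the left anterior descending coronary artery was ligated. Wake MI mice were operated between ZT13 and ZT15 and their hearts taken at ZT23, where ZT (zeitgeber time) is hours after lights came on. Wake sham mice had sham surgery at the same hours. Sleep MI and sleep sham mice were operated between ZT1 and ZT3, with hearts taken at ZT11. All 4 groups held 3 separate mice, and all hearts were taken 8 hours after surgery, so the hour of surgery and the hour of collection cannot be told apart. The MI samples are labelled as infarcted myocardium. Which region of the sham hearts was taken is not stated, so infarction and region cannot be told apart either.

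Prostaglandins are local lipid mediators. Cytosolic phospholipase A2 frees arachidonic acid from membranes, the cyclooxygenases turn it into prostaglandin H2, and terminal synthases convert that into the separate prostaglandins. In heart and vessel walls, prostacyclin relaxes vessels and holds back platelets, while prostaglandin E2 takes part in inflammation. The signal ends when 15-hydroxyprostaglandin dehydrogenase, encoded by Hpgd, oxidises the products. Sphingosine 1-phosphate, made by sphingosine kinases, is a separate lipid signal that acts on endothelium and leukocytes.

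Each heart was measured on 1 single-colour Affymetrix array. The median signal of a probe set was 32.7 to 34.7 over the 12 arrays, and arrays correlated at 0.981 to 0.990 within groups and 0.971 to 0.990 between groups, across probe sets, which are not independent replicates. The 9 cardiomyocyte markers were all above the level needed for testing, and their summed signal was 64269 to 79213 in wake MI, 61933 to 69299 in wake sham, 70378 to 77894 in sleep MI and 57447 to 79577 in sleep sham hearts. Atrial markers were uneven: their sum was 47.7 to 59.9 in wake MI hearts, against 269 to 8718 in wake sham hearts with wake sham replicate 3 on top, and 350 to 1246 in sleep MI hearts, against 80.8 to 611 in sleep sham hearts. Degraded RNA raises the 3′ over 5′ ratio of the beta-actin controls. This ratio was 2.60 ± 0.62 in wake MI hearts, against 1.79 ± 0.02 in wake sham hearts, with no overlap. It was 2.40 ± 0.45 in sleep MI hearts, against 2.18 ± 0.28 in the sleep sham group (SD, n = 3 each). Its highest value, 3.31, was in wake MI replicate 3.

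Across the MI comparisons, 2 genes rose and 1 fell at both times of day. Sphk1 and Ptgs2, the inducible cyclooxygenase, were higher in infarcted hearts, and Hpgd was lower. Ptger4, a receptor for prostaglandin E2, was called higher in wake hearts. Of all tested genes, 18.4% were called in wake hearts and 2.68% in sleep hearts. The sleep call of Ptgs2 and the wake call of Ptger4 each ended with some single arrays left out. No change was called for Pla2g4a, Ptgis and Ptgds, and Ptges and Ptgfr had signals too low for the test.

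The promoters of the 3 genes that changed at both times are shown because those had the largest changes between MI and sham hearts among the genes followed. They are taken from RefSeq on build GRCm38.p6, where 9 of the 10 genes had an entry, and each runs from 250 bases before to 50 bases after an annotated start. For Sphk1 the most upstream of its 5 starts with a promoter entry is shown. The annotated gene itself begins further upstream, at 116530836. Capitals mark matches, on either strand, to a CRE core (TGACG), an E-box (CACGTG), an AP-1 site (TGANTCA), a C/EBP site (TTNNGNAA), an NF-kB site (GGGA, NNNN and CC in a row) or a TATA box (TATAAA).
Ptgs2, chr1:150099781-150100080, plus strand: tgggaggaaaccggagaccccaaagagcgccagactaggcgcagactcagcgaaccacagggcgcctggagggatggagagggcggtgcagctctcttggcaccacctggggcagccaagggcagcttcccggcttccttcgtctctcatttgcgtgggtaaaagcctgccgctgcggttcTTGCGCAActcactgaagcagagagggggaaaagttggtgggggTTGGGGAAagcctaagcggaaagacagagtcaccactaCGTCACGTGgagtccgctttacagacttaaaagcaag
Sphk1, chr11:116530850-116531149, plus strand: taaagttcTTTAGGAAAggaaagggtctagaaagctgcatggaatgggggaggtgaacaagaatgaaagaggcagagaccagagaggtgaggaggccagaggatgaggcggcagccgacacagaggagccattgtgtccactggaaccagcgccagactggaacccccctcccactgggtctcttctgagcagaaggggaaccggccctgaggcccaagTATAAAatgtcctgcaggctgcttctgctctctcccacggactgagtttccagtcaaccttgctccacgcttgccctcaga
Hpgd, chr8:56294302-56294601, plus strand: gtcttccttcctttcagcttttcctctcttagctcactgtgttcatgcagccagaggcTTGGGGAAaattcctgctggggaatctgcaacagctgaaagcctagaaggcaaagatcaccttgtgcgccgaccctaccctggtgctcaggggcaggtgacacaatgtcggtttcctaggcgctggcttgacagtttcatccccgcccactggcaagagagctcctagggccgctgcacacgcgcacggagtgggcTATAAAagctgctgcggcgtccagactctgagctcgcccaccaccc
Positions are counted from the annotated start. The Ptgs2 window held a CRE core at position 14 and an E-box at position 17, which overlap each other, and C/EBP matches at positions -69 and -25. Among 32851 promoter windows of the same length, 20.8% held the CRE core, 7.15% the E-box and 40.7% the C/EBP motif. The Sphk1 window held a TATA box at position -31 and C/EBP matches, overlapping each other, at -242 and -241. The Hpgd window held a TATA box at position 5, after the annotated start, and a C/EBP match at -192. TATA boxes were in 13.6% of all windows, AP-1 matches in 7.81% and NF-kB matches in 20.7%, and neither AP-1 nor NF-kB letters occurred in these 3 windows. Windows at other annotated Sphk1 starts, which overlap in part, held an AP-1 match (at -50 in one and -124 in another), CRE cores (at -140, 38, -214 and -37) and an E-box (at -95 and -102). A match is a run of letters, and neither binding nor the start used in these hearts was measured.

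Signals were compared as log2(signal + 16), and a gene was tested if its mean over the 12 arrays reached a signal of 17.3. By that rule 8111 genes were tested, 7 of the 9 measured genes of the pathway among them. A gene was called at a Benjamini-Hochberg adjusted p below 0.05 in limma. Over both times 4 of the 7 were called, Sphk1, Ptgs2 and Ptger4 higher and Hpgd lower, where 22.2% of all tested genes were called, 8.57% higher and 13.6% lower. In wake hearts the same 4 were called against a background of 18.4% (7.8% higher, 10.6% lower). In sleep hearts Sphk1, Ptgs2 and Hpgd were called against a background of 2.68% (1.69% higher, 0.986% lower). Within each time of day, MI and sham hearts did not overlap at both times for Sphk1 and Ptgs2 (higher, as in 4.27% of genes) and Hpgd (lower, 7.05%). The share of genes in which all 6 MI hearts lay on the same side of all 6 sham hearts was not counted. It can be no higher than these shares. In wake hearts Sphk1, Ptgs2 and Ptger4 (higher, 13.7%) and Hpgd (lower, 21.5%) did not overlap, and in sleep hearts Sphk1 and Ptgs2 (higher, 8.21%) and Hpgd (lower, 15.3%). The mean signals of Ptgs2 and Sphk1 in wake sham hearts, 16.4 ± 5.90 and 16.5 ± 6.14 (SD, n = 3), lay just below the level for testing, so both passed it through the other groups.

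**Figure D1:**
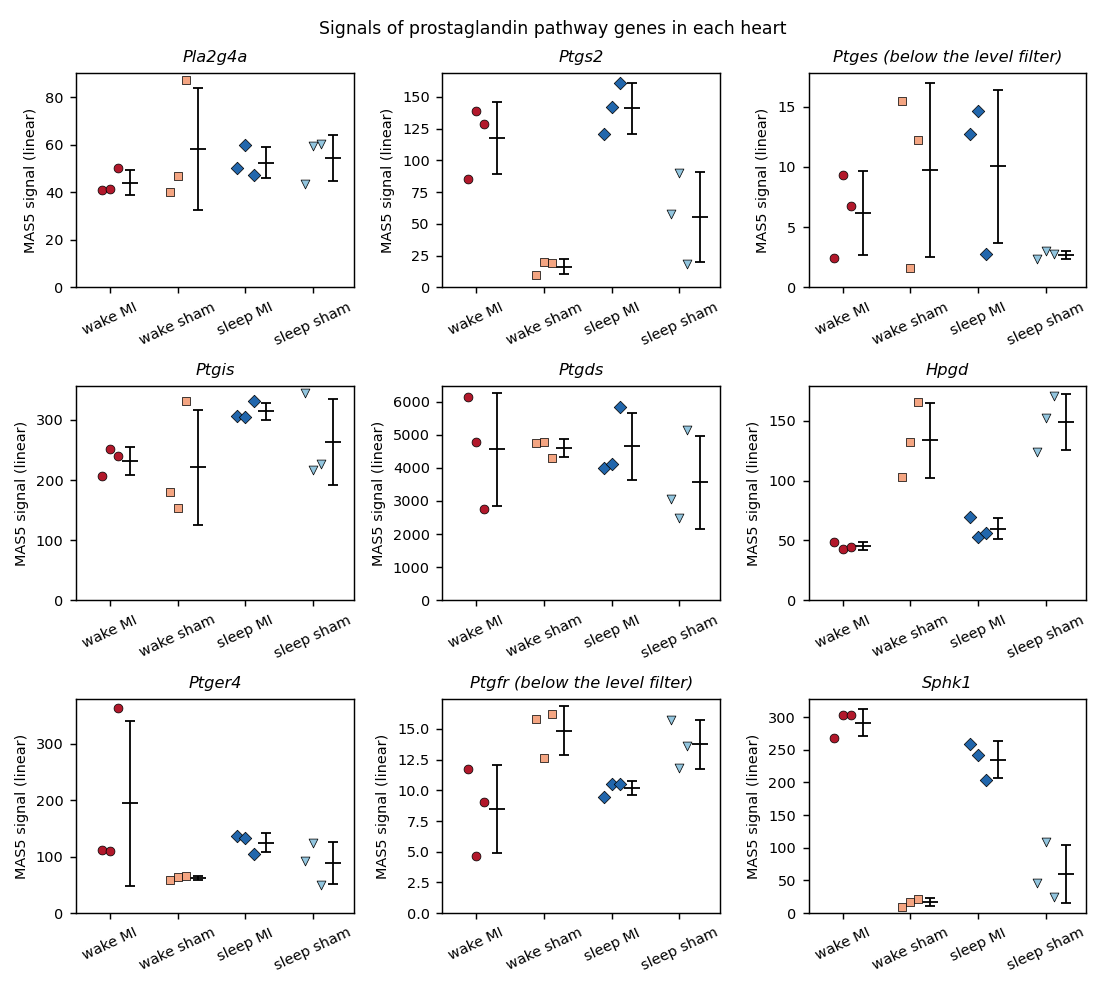
MAS5 signal (linear axis from 0, a scale of its own for each gene) of the 9 measured genes, each shown by its brightest probe set, in wake MI, wake sham, sleep MI and sleep sham hearts. Points are hearts, and the bar beside them is mean ± SD (n = 3). Hpgd is lower in all 6 MI hearts than in all 6 sham hearts, and Sphk1 is higher in all 6 MI hearts.

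Pla2g4a encodes the cytosolic phospholipase A2 that frees arachidonic acid. Its signals (probe set 1448558_a_at) were 41.0, 41.3 and 50.1 in wake MI hearts, against 39.98, 47.0 and 87.4 in wake sham hearts. In sleep MI hearts they were 50.1, 59.97 and 47.4, against 43.3, 59.7 and 60.5 in sleep sham hearts. The groups overlapped at both times, and the high value came from wake sham replicate 3, the heart with the top atrial sum. The log2 change over both times was -0.14 (95% interval -0.44 to 0.15, limma adjusted p = 0.497), and -0.01 without that heart.

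Ptgs2 encodes cyclooxygenase-2, the form switched on by stress and inflammation. Its signals (1417262_at) were 85.3, 139 and 129 in wake MI hearts, against 9.58, 20.0 and 19.6 in wake sham hearts. Sleep MI hearts gave 121, 142 and 161, against 57.5, 89.9 and 18.7 in sleep sham hearts. The groups did not overlap at either time, but the wake MI heart at 85.3 lay below the sleep sham heart at 89.9. Ptgs2 rose 4.11-fold in wake hearts (log2 2.04, SE 0.31, limma adjusted p = 0.000855) and 2.42-fold in sleep hearts (log2 1.27, SE 0.31, adjusted p = 0.0422). These folds are on the log2(signal + 16) scale, which understates changes from low signals: the ratio of mean signals was 7.18 in wake hearts and 2.55 in sleep hearts. The sleep call ended with any of 9 single arrays left out (adjusted p up to 0.133, log2 0.82 without sleep sham replicate 3), and without the level filter (adjusted p = 0.0831). With beta-actin ratio as covariate, the wake change was log2 1.71 (adjusted p = 0.0522) and the change over both times, log2 1.66 without the covariate, was 1.45 (adjusted p = 0.0122).

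The other Ptgs2 probe set, 1417263_at, had a mean below the level for testing but moved the same way. It gave 17.5, 15.6 and 18.7 in wake MI hearts, against 11.1, 5.25 and 6.61 in wake sham hearts. In sleep MI hearts it gave 25.2, 29.0 and 23.1, against 5.63, 13.7 and 7.16 in sleep sham hearts. No MI heart overlapped a sham heart at either time or across times. In a fit of all probe sets without a level filter its log2 change over both times was 0.63 (SE 0.11, limma adjusted p = 0.00283).

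Among the terminal synthases, Ptges encodes the inducible prostaglandin E synthase that is often coupled to cyclooxygenase-2. Its signals stayed between 1.62 and 15.5 on all 12 arrays in 1 probe set (1449450_at) and between 0.444 and 9.595 in the other (1449449_at), below the level for testing. Ptgis encodes prostacyclin synthase of the vessel wall. Its signals (1448816_at) were 206, 251 and 240.2 in wake MI hearts, against 179, 154 and 331 in wake sham hearts, and 307, 304 and 331 in sleep MI hearts, against 345, 216 and 227 in sleep sham hearts. MI and sham hearts overlapped at both times (log2 0.20 over both, 95% interval -0.14 to 0.54, limma adjusted p = 0.387). Its top wake sham value was again wake sham replicate 3. Without that heart the log2 change over both times was 0.36 (adjusted p = 0.0520).

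Ptgds encodes the lipocalin-type prostaglandin D synthase, a secreted enzyme. Its signals (1423859_a_at) were 6135, 4791 and 2750.4 in wake MI hearts, against 4739, 4791 and 4292 in wake sham hearts. They were 3998, 4119.8 and 5822 in sleep MI hearts, against 3052, 2489 and 5153 in sleep sham hearts. MI and sham hearts overlapped at both times, and the log2 change was -0.09 in wake hearts (95% interval -0.68 to 0.50) and 0.43 in sleep hearts (-0.16 to 1.02). The other probe set, 1423860_at, gave log2 -0.37 and 0.12 at these times, also not called (limma adjusted p = 0.584 and 0.929).

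Hpgd, the gene of the enzyme that starts prostaglandin breakdown, gave signals (1419905_s_at) of 49.0, 42.7 and 44.4 in wake MI hearts, against 103, 133 and 166 in wake sham hearts. They were, in sleep MI hearts, 70.0, 53.1 and 56.6, against 124, 153 and 171 in sleep sham hearts. The highest MI heart, at 70.0, lay below the lowest sham heart, at 103. Hpgd fell by 1.27 on the log2 scale in wake hearts (SE 0.16, limma adjusted p = 0.000250) and by 1.12 in sleep hearts (SE 0.16, adjusted p = 0.00267), which is 2.41-fold and 2.17-fold lower. Over both times it ranked 5 from the bottom of the 8111 genes by log2 change. Each call held with any single array left out (log2 -1.42 to -1.02) and with the beta-actin covariate. The top wake sham value, 166, was again from wake sham replicate 3, the heart with the top atrial sum. Without that heart the wake change was log2 -1.12 (limma adjusted p = 0.00160). In these whole-tissue samples fewer cells of a type and less RNA per cell cannot be told apart. Summed macrophage markers were 3874 to 4460 in wake MI hearts, against 4761 to 7729 in wake sham hearts, and overlapped in sleep hearts, at 4348 to 5055 in sleep MI and 4569 to 5461 in sleep sham hearts. Fibroblast markers were likewise lower in wake MI hearts (6558 to 8573, against 9249 to 14311 in wake sham hearts). They overlapped in sleep hearts (8821 to 11505 in sleep MI, 8773 to 12315 in sleep sham). The part of these cells in the Hpgd change was not tested at either time. The other probe set of Hpgd, 1419906_at, stayed between 1.05 and 10.6 and did not pass in the limma fit of every probe set with no level filter (log2 -0.20 over both times, adjusted p = 0.238).

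**Figure D2:**
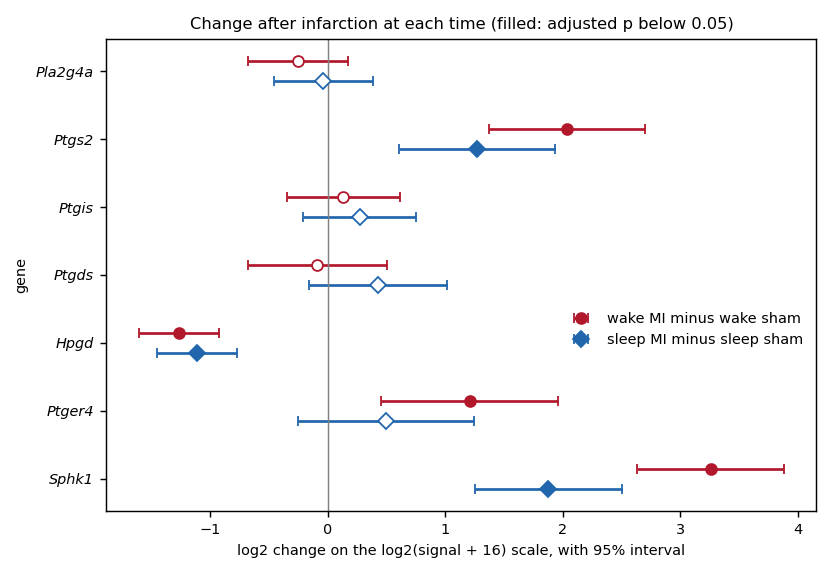
log2 change after infarction (wake MI minus wake sham and sleep MI minus sleep sham, on the log2(signal + 16) scale) of the 7 tested genes, with 95% intervals from limma. Filled symbols have an adjusted p below 0.05. Hpgd lies below 0 and Sphk1 and Ptgs2 above 0 at both times, and the intervals of Pla2g4a, Ptgis and Ptgds include 0.

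Of the receptors, Ptger4 encodes the EP4 receptor of prostaglandin E2, which signals through cyclic AMP. Its signals (1424208_at) were 111, 109 and 363 in wake MI hearts, against 59.2, 63.3 and 66.1 in wake sham hearts. In sleep MI hearts they were 137, 133 and 105, against 91.7, 123 and 49.2 in sleep sham hearts. The wake groups did not overlap, the sleep groups did, and wake MI replicate 3 stood far above the other MI hearts. That heart also had the highest beta-actin ratio and the highest endothelial marker sum, 3990 against 2792 to 3691 on the other 11 arrays, and their part in the value was not tested. Ptger4 rose by log2 1.21 in wake hearts (SE 0.35, limma adjusted p = 0.0288), against log2 0.50 in sleep hearts (SE 0.35, adjusted p = 0.516). Without wake MI replicate 3 the wake change was log2 0.68 (adjusted p = 0.0699), and without any single wake sham heart the call ended as well (adjusted p = 0.0611 to 0.0827). Over both times the change was log2 0.85 (adjusted p = 0.0252), and 0.59 without that heart (adjusted p = 0.0198). The call over both times ended without wake sham replicate 1, sleep MI replicate 1 or 2, or sleep sham replicate 3 (adjusted p = 0.0507 to 0.0607). With the beta-actin covariate the change was log2 0.39 over both times (adjusted p = 0.426) and 0.46 in wake hearts (adjusted p = 0.587). The other probe set, 1421073_a_at, had a mean signal of 13.004 and did not pass in the limma fit of every probe set with no level filter (log2 0.35 over both times, adjusted p = 0.167).

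Ptgfr encodes the receptor of prostaglandin F2 alpha. All 3 of its probe sets had mean signals below the level for testing. The brightest, 1453924_a_at, gave 11.8, 4.65 and 9.09 in wake MI hearts, against 15.8, 12.6 and 16.2 in wake sham hearts. It gave 9.49, 10.5 and 10.5 in sleep MI hearts, against 15.8, 11.8 and 13.6 in sleep sham hearts. The 6 MI hearts lay below the 6 sham hearts, by a narrow gap between 11.76 and 11.82, and the change did not pass when every gene was tested (log2 -0.26, limma adjusted p = 0.0828). Another probe set, 1420349_at, gave 0.850 to 11.2 in MI hearts, against 9.82 to 20.5 in sham hearts, with overlap, and passed in the limma fit of every probe set with no level filter (log2 -0.46, adjusted p = 0.0459). MAS5 signals this low carry little information on order.

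Sphk1 encodes the sphingosine kinase that is induced by growth factors and cytokines, and its product is sphingosine 1-phosphate. Its signals (1451596_a_at) were 268, 304 and 304 in wake MI hearts, against 9.91, 17.5 and 22.1 in wake sham hearts. Sleep MI hearts gave 259, 242 and 204, against 46.5, 109 and 24.2 in sleep sham hearts. All 6 MI hearts lay above all 6 sham hearts. Sphk1 rose 9.58-fold in wake hearts (log2 3.26, SE 0.29, limma adjusted p = 2.33e-05) and 3.68-fold in sleep hearts (log2 1.88, SE 0.29, adjusted p = 0.00424). Over both times it ranked 12 from the top of the 8111 genes by log2 change. The ratio of mean signals was 17.7 in wake hearts and 3.92 in sleep hearts. The wake change depended on the constant added before the log, at log2 4.13 with 1 added and 2.15 with 64 added, and kept its call with each.

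The other Sphk1 probe set, 1420566_at, had lower signals and the same direction. It gave 31.3, 31.1 and 31.2 in wake MI hearts, against 8.97, 1.24 and 7.77 in wake sham hearts, and 34.3, 41.9 and 39.0 in sleep MI hearts, against 10.7, 15.7 and 5.61 in sleep sham hearts. MI and sham hearts did not overlap. All 6 sham hearts lay below the level for testing, so it passed that level only through the MI hearts. In the fit of every probe set with no level filter it changed by log2 1.12 in wake hearts and 1.04 in sleep hearts (limma adjusted p = 0.00252 and 0.0162).

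Neutrophil markers, like Ptgs2 and Sphk1, were higher in MI than in sham hearts, though their sums overlapped in sleep hearts. The summed signal of 12 markers, of which 8 were tested and 7 called higher over both times (8.57% of all tested genes were), was 2803, 3289.5 and 1374 in wake MI hearts, against 296, 813 and 442 in wake sham hearts. In sleep MI hearts it was 1768, 3036 and 3165, against 1324, 2062 and 549 in sleep sham hearts. Among the 3 sleep sham hearts, replicate 2 was highest and replicate 3 lowest in this sum, in Ptgs2, in Sphk1 and in Ptger4. The other groups were less even. From replicate 1 to 3 of sleep MI the sum rose, as did Ptgs2 (121, 142 and 161), while Sphk1 fell (259, 242 and 204). Wake MI replicate 3 was lowest of its group in the sum but not in Ptgs2 or Sphk1. Wake sham hearts had the order of the sum in Ptgs2 but not in Sphk1. Wake MI replicate 3 and sleep sham replicate 1 had sums of 1374 and 1324, with Sphk1 signals of 304 and 46.5, Ptgs2 signals of 129 and 57.5 and Hpgd signals of 44.4 and 124. Single markers differed between these hearts, with S100a8 at 412 and 275 and S100a9 at 409 and 304. Over all hearts S100a8 was 412 to 653 after MI, against 48.1 to 331 after sham surgery, while S100a9 overlapped (409 to 1143, against 56.3 to 432). The part of neutrophils in the changes was not tested beyond these values.

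**Figure D3:**
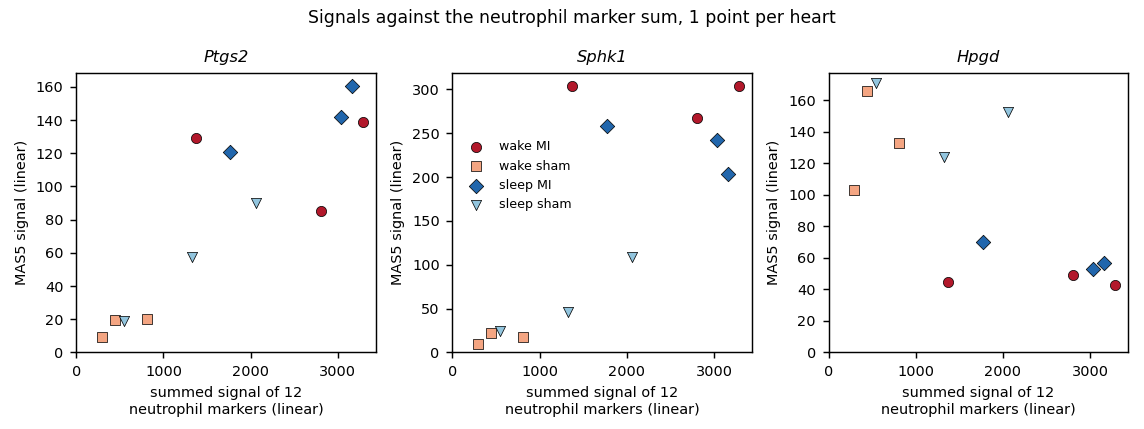
MAS5 signals (linear) of Ptgs2, Sphk1 and Hpgd against the summed signal of 12 neutrophil markers, with 1 point per heart and the 4 groups marked. At sums of 1374 and 1324, Sphk1 was 304 in wake MI replicate 3 and 46.5 in sleep sham replicate 1. The markers S100a8 (412 and 275) and S100a9 (409 and 304) differed between these hearts.

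Between wake and sleep hearts, 0 of the 7 tested genes were called in limma, among MI hearts (background 0.074% of genes, 0.037% higher and 0.037% lower), among sham hearts (1.52%, 0.419% higher and 1.1% lower) or in the difference of the MI effect (0%). At an unadjusted p below 0.05 these counts were 0, 2 and 1 of the 7, and 539, 1090 and 848 of all 8111 genes. In sham hearts the 2 were Sphk1 and Ptgs2, which were lower in wake than in sleep hearts by log2 -1.08 (SE 0.29, adjusted p = 0.0934) and -1.01 (SE 0.31, adjusted p = 0.145). Their dimmer probe sets changed less with no level filter, and the sham groups overlapped in both. Sphk1 (1420566_at) gave log2 -0.28 (limma adjusted p = 0.652) and Ptgs2 (1417263_at) log2 -0.06 (adjusted p = 0.936). In the brightest probe sets the Sphk1 signals of the sham groups did not overlap, as in 8.16% of genes in this direction, and those of Ptgs2 did, through sleep sham replicate 3. The Sphk1 gap was narrow, between 22.1 and 24.2, and near the level for testing. Without sleep sham replicate 3 both were called, Sphk1 at log2 -1.46 (adjusted p = 0.00472) and Ptgs2 at log2 -1.46 (adjusted p = 0.00264). These cases were picked out after their values were seen.

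The MI effect on Sphk1 was larger in wake than in sleep hearts by log2 1.38 (SE 0.41, unadjusted p = 0.00479), which did not pass in limma after adjustment over all genes (adjusted p = 0.273). Without sleep sham replicate 3 the difference was log2 1.76 (adjusted p = 0.0340). In the dimmer Sphk1 probe set, 1420566_at, it was log2 0.08 (SE 0.25, adjusted p = 0.954) with no level filter. For Hpgd the difference of the effects was -0.15 with a 95% interval of -0.63 to 0.33, and for Ptgs2 0.76 with an interval of -0.17 to 1.70. The dimmer Ptgs2 probe set, 1417263_at, gave the other sign, log2 -0.26 (SE 0.21, limma adjusted p = 0.781) with no level filter. Among MI hearts, Hpgd was lower in each wake heart than in each sleep heart (log2 -0.30, 95% interval -0.64 to 0.04, adjusted p = 0.815), and Sphk1 was higher in each wake heart (log2 0.30, adjusted p = 0.898). Groups that do not overlap were found in 4.41% and 6.47% of tested genes in these directions. The dimmer Sphk1 probe set, 1420566_at, had the reverse order, with each wake MI heart below each sleep MI heart. Its log2 change was -0.20 (SE 0.17, limma adjusted p = 0.896) with no level filter, so the order of Sphk1 among MI hearts depended on the probe set.

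By group mean, Hpgd ran from sleep sham (149 ± 23.6) and wake sham (134 ± 31.4) to sleep MI (59.9 ± 8.89) and wake MI (45.4 ± 3.26; SD, n = 3 each), and of these neighbours only the sham groups overlapped. Sphk1, in its brightest probe set, ran from wake MI (292 ± 20.9) over sleep MI (235 ± 28.0) and sleep sham (59.9 ± 44.0) to wake sham, with no overlap between neighbours. In the dimmer Sphk1 probe set, sleep MI (38.4 ± 3.87) lay above wake MI (31.2 ± 0.11). Ptgs2 was highest in sleep MI (141 ± 20.0), then wake MI (118 ± 28.4), sleep sham (55.3 ± 35.6) and wake sham, and each neighbouring pair overlapped. For Pla2g4a, Ptgis, Ptgds and Ptger4 each neighbouring pair overlapped too.

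Other enzymes and receptors of the prostanoid pathway were taken from a list of 34 genes, 29 of them on the array and 17 tested. Over both times 0 rose and 5 fell (median log2 -0.21, against -0.06 over all tested genes, of which 8.57% rose and 13.6% fell), and in wake hearts 0 rose and 4 fell (median -0.27, against -0.06 over all tested genes, of which 7.8% rose and 10.6% fell). In sleep hearts none of the 17 was called by limma, against 2.68% of all tested genes. Ptgr2, a reductase of the keto-prostaglandins that Hpgd makes, had 255, 272 and 235 in wake MI hearts, against 313, 337 and 310.2 in wake sham hearts, and 241, 234 and 251 in sleep MI hearts, against 282, 285 and 285 in sleep sham hearts. MI and sham hearts did not overlap (log2 -0.27 over both times, limma adjusted p = 0.0113), but the change was small, and its other 2 probe sets were not called (adjusted p = 0.158 and 0.582).

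Cbr1 and Cbr3 encode carbonyl reductases, and the human CBR1 enzyme turns prostaglandin E2 into F2 alpha. Cbr1 gave 149.8, 117 and 127 in wake MI hearts, against 177, 209.5 and 205 in wake sham hearts, and 156, 172 and 151 in sleep MI hearts, against 197, 195 and 223 in sleep sham hearts. Each MI heart lay below each sham heart, and the log2 change over both times was -0.43 (SE 0.08, limma adjusted p = 0.00241). MI hearts lay below sham hearts without overlap at both times, as for Cbr1 and Ptgr2, in 7.05% of tested genes. Cbr3 changed by log2 -0.50 over both times (adjusted p = 0.00210) and by -0.76 in wake hearts (adjusted p = 0.00189). Pla2g15, a lysosomal phospholipase, fell by 0.66 on the log2 scale (adjusted p = 0.00169) and Plaat3, a phospholipase of fat tissue, by 0.21 (adjusted p = 0.0318). The Plaat3 call ended with any of 6 single arrays left out. With the beta-actin covariate the calls of Cbr3, Ptgr2 and Plaat3 over both times ended, and those of Cbr1 and Pla2g15 held. In wake hearts the calls of Cbr1, Cbr3 and Ptgr2 ended with it.

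Ptgr1, the other keto-prostaglandin reductase, did not pass (log2 -0.40, SE 0.15, limma adjusted p = 0.0758). Nor did thromboxane synthase Tbxas1 (log2 -0.18, adjusted p = 0.442), the prostaglandin uptake carrier Slco2a1 (log2 -0.11, adjusted p = 0.564) or the constitutive synthase Ptges2 (log2 -0.00177, adjusted p = 0.991). The receptor genes Ptger1, Ptger2, Ptger3 and Ptgir lay below the level for testing, with mean signals of 0.939, 8.95, 2.37 and 14.6.

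Of 19 leukotriene and other oxylipin genes, 10 were tested. Over both times 1 rose and 2 fell (median log2 -0.11), near the 22.2% called over all tested genes, and in sleep hearts none was called by limma, against 2.68%. Fpr2, a formyl peptide and lipoxin receptor of phagocytes, gave log2 0.65 (adjusted p = 0.0233). Its mean signal was 10.2 in wake sham hearts, below the level for testing, and 22.5 in sleep sham hearts, so it passed through the other groups. Its signals were 35.4, 46.9 and 13.7 in wake MI hearts, against 3.99, 12.7 and 14.1 in wake sham hearts, and 29.0, 44.0 and 37.5 in sleep MI hearts, against 24.4, 29.9 and 13.3 in sleep sham hearts. Wake MI replicate 3, lowest of the MI hearts in neutrophil markers, was also lowest in Fpr2. The epoxide hydrolase Ephx1 (log2 -0.51, adjusted p = 0.0210) and Lta4h, which makes leukotriene B4 (log2 -0.26, adjusted p = 0.0241), fell, and both lost their call over both times with some single arrays left out, as did Fpr2. The 5-lipoxygenase partner Alox5ap stood at log2 0.01 (adjusted p = 0.971).

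Of 27 sphingosine phosphate genes, 20 were tested. Over both times 2 rose and 1 fell (median log2 0.04), and in wake hearts 3 rose and 1 fell (median 0.08), where 22.2% and 18.4% of all tested genes were called. S1pr1, a receptor for the product of Sphk1, gave 323, 331 and 506 in wake MI hearts, against 135, 226 and 128 in wake sham hearts, and 351, 394 and 279 in sleep MI hearts, against 282, 294 and 195 in sleep sham hearts. The wake groups did not overlap and the sleep groups did. S1pr1 rose by log2 1.18 in wake hearts (SE 0.22, limma adjusted p = 0.00346), against 0.40 in sleep hearts (adjusted p = 0.393). The difference of these effects did not pass (log2 0.78, adjusted p = 0.407), and both the wake call and the call over both times ended with the beta-actin covariate. The top S1pr1 value, 506, came from wake MI replicate 3, the heart with the highest beta-actin ratio and the highest endothelial marker sum. Both calls held without that heart, and the part of these measures in the value was not tested. Sptlc2, a subunit of the enzyme that starts sphingolipid synthesis, rose by log2 0.49 over both times (adjusted p = 0.0146), and the sphingosine 1-phosphate exporter Spns2 by log2 0.54 in wake hearts (adjusted p = 0.0405). The Sptlc2 call over both times ended with the beta-actin covariate, and the Spns2 call with that covariate or with any of 6 single arrays left out. The ceramide synthase gene Cers4 fell (log2 -0.41, adjusted p = 0.00888) in 2 of its 3 probe sets. Sphk2, the other sphingosine kinase (log2 0.09, adjusted p = 0.684), and the lyase Sgpl1 (log2 0.03, adjusted p = 0.829) did not pass.

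**Figure D4:**
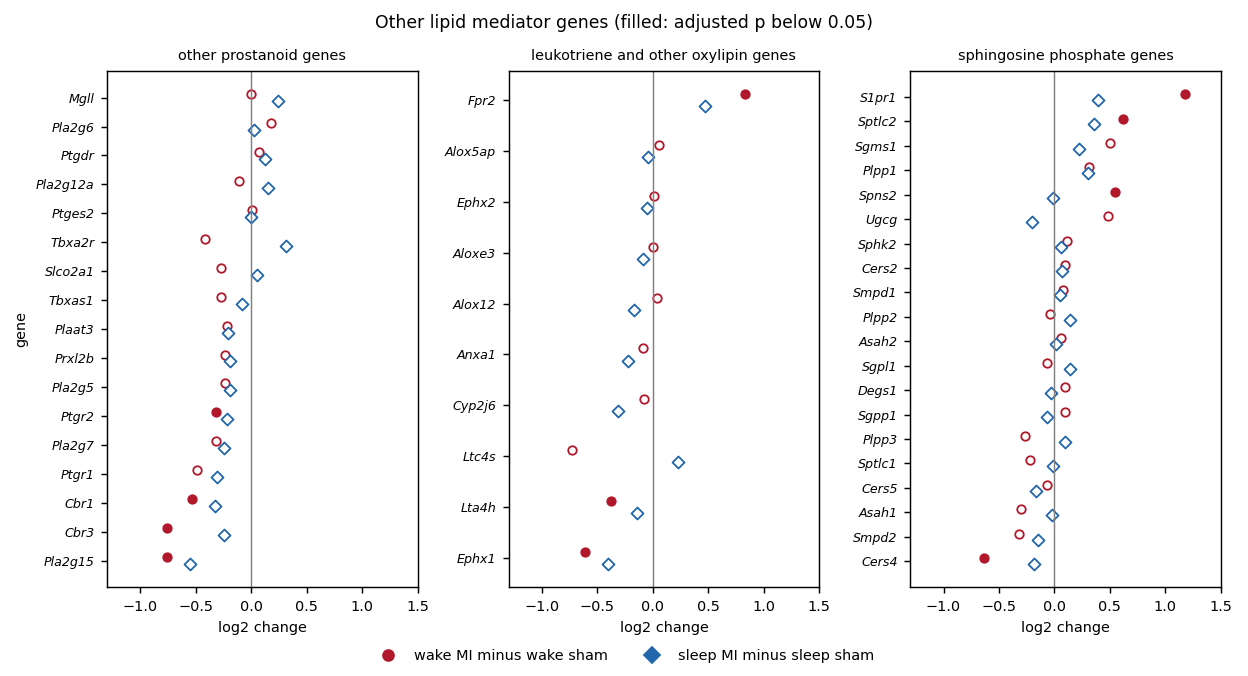
log2 change on the log2(signal + 16) scale, wake MI minus wake sham (circles) and sleep MI minus sleep sham (diamonds), of the tested prostanoid, oxylipin and sphingosine phosphate genes outside the 10. Filled symbols have a limma adjusted p below 0.05, and no sleep symbol is filled.

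The tested genes nearest to Sphk1 over the 12 arrays, by the root mean square difference of log2 values after each gene was centred on its mean, were Ch25h (0.32), Cxcl2 (0.34) and Btg2 (0.36), where the median over 8110 genes was 1.43. Ch25h, which encodes cholesterol 25-hydroxylase, had 167, 209 and 225 in wake MI hearts, against 18.5, 18.8 and 21.8 in wake sham hearts, and 226, 227 and 207 in sleep MI hearts, against 59.8, 134 and 14.1 in sleep sham hearts. Like Sphk1, it was highest in replicate 2 and lowest in replicate 3 among sleep sham hearts. Nearest to Hpgd were Slc35a5, Sh3d19 and Rpa3 (0.28, 0.28 and 0.29, median 0.63).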

How the data were processed

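Heart RNA of 12 mice was measured on 12 arrays. Each deposited value is a probe set's linear intensity. MAS5 made it, per the submitters' processing notes, with settings that these sources do not state. The 2% trimmed mean was 150 on each array, so no further scaling was applied. Labels give no scan date or batch.

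Of 22690 probe sets, 64 were controls, 20380 had 1 gene symbol in the array annotation, 691 several and 1555 none. Identifiers were checked against RefSeq gene names (12369 matched, 24 did not, 0 symbols changed). The brightest probe set by mean stood for its gene. A gene entered the test with a mean at or above the 40th percentile over probe sets, 17.3, and was tested as log2(signal + 16) with limma 3.58.1 in R 4.3.3: 1 mean per group over 12 arrays, an intensity trend, two-sided tests, 13.9 degrees of freedom with the prior, and Benjamini-Hochberg adjustment over 8111 genes within each of 6 comparisons. An exact permutation test of 3 against 3 cannot give p below 0.1, so limma alone was used. Separate mice stand behind the replicates; their number limits precision.

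The rule for named genes takes every member, the called genes of 3 pathway lists (up to 6 a comparison) with enzymes and receptors next to a member, and the 3 genes nearest to the member with the largest rise and fall. The members, lists and tests were chosen with earlier results of these data known. On 1 simulated set for wake MI against wake sham (8111 genes), 90% of 100 genes given a log2 change of 1 and 100% of 100 given 2 were recovered, with 9 false calls among 199. The simulated noise was independent for each gene, with no difference in beta-actin ratio or tissue between groups. These rates therefore do not carry over to the measured comparison. Alternatives were other added constants (1, 64), no or a higher level filter (60th percentile), quantile normalization, every probe set alone, the mean of probe sets, no variance trend, the compared groups alone, the beta-actin ratio as a covariate, the replicate number as a block, and each array left out.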

Additional observations from a re-analysis of the deposited data

How the results depend on the processing

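Of 11 called changes of the pathway genes, 7 kept their call in every alternative run and with each array left out: those of Hpgd and Sphk1 over both times, in wake and in sleep hearts, and that of Ptgs2 over both times. None of the 11 changed sign. With beta-actin ratio as covariate, 2 genes, Sphk1 and Hpgd, were called in wake hearts, against 4 without it; that ratio separates the wake groups, so it cannot be told apart from infarction there. Among all genes it moved the calls in wake hearts to 265, against 1496, over both times to 675, against 1802, and in wake against sleep sham hearts to 38, against 123. The cause was not tested. Wake calls were 873 without wake sham replicate 1 and 838 without wake sham replicate 3. Sleep calls, 217, were 140 without a level filter and 57 to 124 without any of 5 single sleep hearts. In wake against sleep sham, calls were 75 without a level filter, 71 with the mean of probe sets, 65 with the compared groups only, and 30 to 229 with single arrays left out. In wake against sleep MI the 6 calls became 0 to 3 in several settings. In the difference of effects, with 0 calls, there were 1 at the higher filter, 2 with quantile normalization, 3 with the replicate block, 22 without wake sham replicate 2, 1 without sleep sham replicate 1 and 36 without sleep sham replicate 3. With single arrays left out, 3 to 4 of the genes were called over both times, 3 to 4 in wake hearts, 2 to 3 in sleep hearts, 0 in wake against sleep MI, 0 to 2 in wake against sleep sham hearts and 0 to 1 in the difference of the MI effect. The replicate block left the counts at 4, 4, 3, 0, 0 and 0 in these 6 comparisons and moved no call of these genes; same-numbered arrays deviated with correlations of -0.17 to 0.25, and 2 of 12 arrays correlated best with their own number, so the numbers were not taken to pair the mice. Sign changes occurred in 21 of 946 alternative values, all of changes not called in either setting. With the beta-actin covariate they were Ptgis -0.051 and Ptgds 0.28 in wake MI against wake sham, and Pla2g4a -0.015 and Ptger4 0.070 in wake against sleep sham. Quantile normalization gave Pla2g4a 0.000524 in sleep MI against sleep sham. The mean of probe sets gave Ptgds 0.062 in wake against sleep MI and Hpgd 0.019 in wake against sleep sham. With single arrays left out, Pla2g4a ran from -0.43 to 0.014 in wake MI against wake sham, -0.16 to 0.027 in sleep MI against sleep sham, -0.24 to 0.20 in wake against sleep sham and -0.39 to 0.051 in the difference of effects. Ptgis ran from -0.072 to 0.44 in wake MI against wake sham and -0.34 to 0.17 in the difference of effects. Ptgds ran from -0.34 to 0.24 in wake MI against wake sham and -0.33 to 0.24 in wake against sleep MI, Ptger4 from -0.15 to 0.65 in wake against sleep MI, and Hpgd from -0.30 to 0.0049 in wake against sleep sham. Signals below about 16 limit what can be said of Ptges and Ptgfr.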
